A study of Mus musculus with 15 samples.

Results

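The neurotrophin receptor genes Ntrk2 and Ntrk3 and the ligand gene Bdnf were examined in mouse cortex taken 1 month after repeated head impacts delivered at high frequency (HF-HI), or after the Sham procedure. Members were all listed transcripts that the GENCODE M21 annotation of the GRCm38 (mm10) genome assigns to these genes. Of the 10370 listed transcripts, 4 were members, 2 of Ntrk2 and 2 of Ntrk3. The annotation holds 10 transcripts of Ntrk2, 20 of Ntrk3 and 11 of Bdnf, so 8, 18 and 11 of them were not analysed here, and Bdnf therefore has no value in the results. The libraries came from dissected cortex of male C57BL/6 mice (C57Bl/6J in the study's methods) labelled as 12 weeks old. The HF-HI group of 8 libraries received repeated head impacts under anesthesia, and the Sham group of 7 libraries was anesthetized and handled alike without impacts. Each library is a separate sample by its label, and p-values of group differences set the difference against the spread between these samples.

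Neurotrophins are secreted growth factors that keep neurons alive and adjust the strength of their synapses. BDNF binds TrkB, the product of Ntrk2, and neurotrophin-3 binds TrkC, the product of Ntrk3. A full-length Trk receptor carries an intracellular tyrosine kinase that passes the signal to the MAP kinase, PI3 kinase and phospholipase C gamma pathways. Truncated forms bind the ligand with the same extracellular part but lack the kinase, and they can take up the ligand or block the full-length form. In the cortex, full-length TrkB is mostly neuronal, while the truncated form called TrkB.T1 is abundant in astrocytes.

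Each receptor gene was represented by a full-length and a truncated transcript. A transcript was called full-length where its coding sequence ended at the stop codon of the longest annotated coding sequence of the gene, and truncated where a complete coding sequence ended elsewhere. Full-length Ntrk2-201 (ENSMUST00000079828, gene ENSMUSG00000055254) lies on the plus strand at chr13:58807697-59133970, with 18 exons, 8744 bases and 821 codons. Truncated Ntrk2-202 (ENSMUST00000109838) lies at chr13:58808281-58937027, with 12 exons, 6846 bases and 476 codons. Full-length Ntrk3-201 (ENSMUST00000039431, gene ENSMUSG00000059146) lies on the minus strand at chr7:78175959-78578408, with 17 exons, 19703 bases and 825 codons. Truncated Ntrk3-202 (ENSMUST00000039438) lies at chr7:78300690-78577982, with 14 exons, 3977 bases and 612 codons.

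The point where the forms part is what tells kinase-bearing from truncated receptor mRNA, so the coding sequence around it is shown from the GENCODE M21 transcripts, 5′ to 3′. The last 30 coding bases that both forms of a gene share are in lower case. The coding bases that belong to the named form alone are in capitals, up to 60 bases for the full-length form and up to and including the stop codon for the truncated form.
Ntrk2-201: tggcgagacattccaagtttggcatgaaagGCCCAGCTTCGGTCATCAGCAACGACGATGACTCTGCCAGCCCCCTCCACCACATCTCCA
Ntrk2-202: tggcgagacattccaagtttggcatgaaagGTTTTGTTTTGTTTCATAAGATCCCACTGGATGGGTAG
Ntrk3-201: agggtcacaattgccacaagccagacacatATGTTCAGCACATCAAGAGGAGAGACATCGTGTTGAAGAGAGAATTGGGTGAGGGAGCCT
Ntrk3-202: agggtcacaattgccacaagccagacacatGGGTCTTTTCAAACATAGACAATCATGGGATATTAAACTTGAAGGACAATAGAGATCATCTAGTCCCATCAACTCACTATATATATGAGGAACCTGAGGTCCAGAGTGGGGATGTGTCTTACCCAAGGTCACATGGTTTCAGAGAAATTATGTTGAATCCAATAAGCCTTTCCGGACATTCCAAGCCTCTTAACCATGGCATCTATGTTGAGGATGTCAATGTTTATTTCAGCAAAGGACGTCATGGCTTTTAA

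The truncated forms differed in how much coding sequence of their own they carried. The Ntrk2 forms share 1393 coding bases, after which the full-length form has 1073 of its own and the truncated form only 38. The Ntrk3 forms share 1585 coding bases, after which the full-length form has 893 of its own and the truncated form 254. Counting untranslated parts as well, the shared exonic bases make up 19.9% of Ntrk2-201 and 25.4% of Ntrk2-202, and 9.05% of Ntrk3-201 and 44.9% of Ntrk3-202. A read from a shared base does not tell the forms apart by itself, and the authors' counting divided such reads between transcripts by estimation. The last exon of Ntrk3-201 alone has 16786 bases, most of them untranslated.

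**Figure D1:**
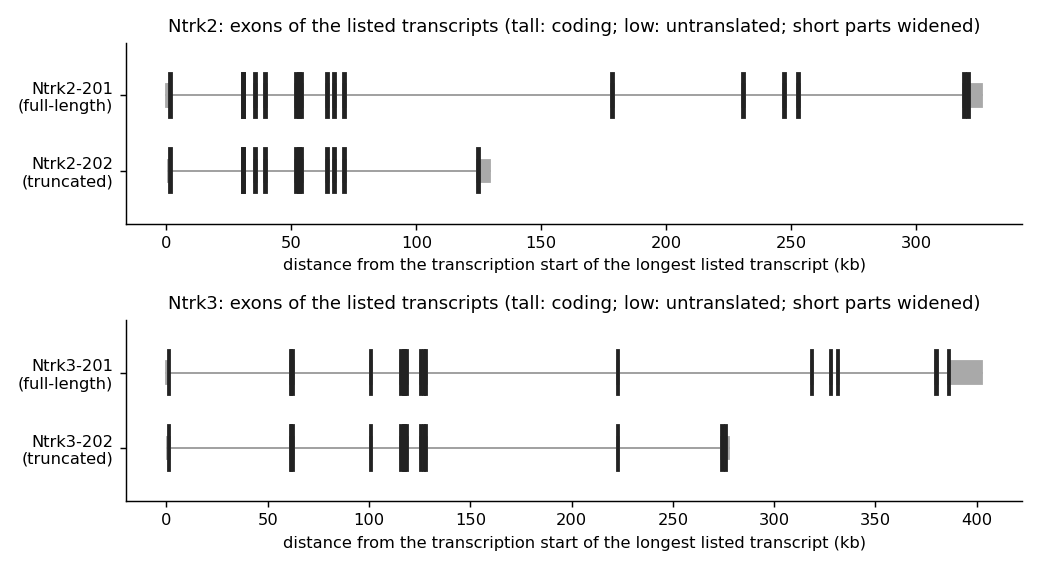
Exons of the 4 listed receptor transcripts against the distance in kilobases from the start of the longest listed transcript of each gene, with thin lines for introns, tall boxes for coding and low boxes for untranslated sequence. Short boxes are widened to stay visible, the forms of a gene share their first coding exons, and each full-length form runs on through coding exons beyond the end of its truncated form.

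The deposited unit was the variance-stabilized value (VSD, log2 scale), and values were converted back to normalized counts and to whole reads. The listed transcripts held 5798810 to 10582858 reads in a Sham library and 3496103 to 8666307 in an HF-HI library, and the mean size factor was 1.26 in Sham and 0.888 in HF-HI. HF-HI replicate 2 stood apart. Its score on principal component 1 (14.3% of variance) was 12.6, and the other scores ran from -3.35 to 0.721. It had the lowest summed neuron markers (67963 normalized counts) and astrocyte markers (66392) of the 15 libraries, and the highest summed oligodendrocyte (36800), microglia (2683) and choroid plexus markers (13832). The next values were 68353 (Sham replicate 4), 67266 (Sham replicate 1), 36091 (HF-HI replicate 6), 2633 (Sham replicate 4) and 13430 (HF-HI replicate 5). Choroid plexus markers were also high in Sham replicates 2 (11212) and 1 (11091), and 1972 to 2384 in the remaining libraries. Values of the receptor transcripts without HF-HI replicate 2 are given beside theirs.

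Full-length Ntrk2 was the most abundant member. In Sham, Ntrk2-201 had 4226 normalized counts at the lowest, 4545 at the median and 4948 at the highest, and in HF-HI it had 3977, 4374 and 4847. The groups overlapped widely, although in HF-HI 7 of 8 values were under the median of Sham, and the lowest value of all was in HF-HI replicate 2. The means were 4554 ± 238 (SD, n = 7) in Sham and 4375 ± 256 (SD, n = 8) in HF-HI. The VSD difference, HF-HI minus Sham, was -0.04 (SE 0.03, 95% interval -0.11 to 0.02), with a limma p of 0.177 and 0.716 after Benjamini-Hochberg adjustment over all transcripts. On the scale of normalized counts the interval ran from 0.904 to 1.02 times the Sham level. The VSD difference was -0.03 (limma p 0.328) without HF-HI replicate 2 and -0.03 (limma p 0.362) without Sham replicate 5, and -0.06 to -0.03 over all 15 fits that left out a library. The spread between libraries, 5.22% of the mean in Sham and 5.86% in HF-HI, exceeded the counting error of 1.35% and 1.69%, which rests on 2182 to 7076 reads a library.

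Truncated Ntrk2 lay higher in HF-HI than in Sham by its mean, but not past the adjusted threshold. Ntrk2-202, the TrkB.T1 type of transcript, had a lowest value of 1217, a median of 1322 and a highest value of 1903 normalized counts in Sham, against 1432, 1601 and 1820 in HF-HI. Each of the 8 HF-HI values exceeded the median of Sham, yet none exceeded the highest Sham library, replicate 4. The means were 1418 ± 243 (SD, n = 7) and 1620 ± 151 (SD, n = 8), a difference of 14.2%. The VSD difference was 0.11 (SE 0.05, 95% interval 0.00 to 0.21), with a limma p of 0.0428 and an adjusted p of 0.555. The interval on the scale of normalized counts was 1.01 to 1.31 times the Sham level. The spread between Sham libraries was 17.1% of the mean against a counting error of 2.40%, and that between HF-HI libraries was 9.31% against 2.78%.

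Among the 4 members, 1 was past an unadjusted p of 0.05 and 0 were past the adjusted threshold of 0.1 in limma. Over all listed transcripts the unadjusted level was passed by 916, or 8.83%, with 4.94% higher and 3.9% lower in HF-HI, and the adjusted threshold by none of the 10370 (0.0%). By voom on the recovered reads, 878 transcripts passed the unadjusted level and 0 the adjusted threshold. The study itself reported significantly changed genes at 1 month with another test, DESeq2 on its counts. The absence of adjusted calls therefore belongs to the fits used here, and the reason for the difference was not tested. The p of Ntrk2-202 ranked at 795 among all transcripts. Groups that did not overlap were seen for 16 transcripts, or 0.154% of all, and for none of the 4 members.

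The unadjusted call of Ntrk2-202 depended on single libraries. It was kept in 6 of the 15 fits that left out a library, namely those without Sham replicates 1 and 4 (each alone) and those without HF-HI replicates 1, 3, 5 and 7 (each alone). It was lost in the other 9, those without Sham replicates 2, 3, 5, 6 and 7 and without HF-HI replicates 2, 4, 6 and 8. Without HF-HI replicate 2 the VSD difference was 0.09 with a limma p of 0.0805. Without Sham replicate 4, the library with the most truncated Ntrk2, the limma p was 0.00128 (adjusted p 0.278), and over the 15 fits it ran from 0.00128 to 0.0935 with a VSD difference of 0.09 to 0.15. The groups also differed in depth. With the log2 size factor as a covariate the VSD difference of Ntrk2-202 was 0.12 in place of 0.11. Its limma p was then 0.0637 and the adjusted p 0.959.

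**Figure D2:**
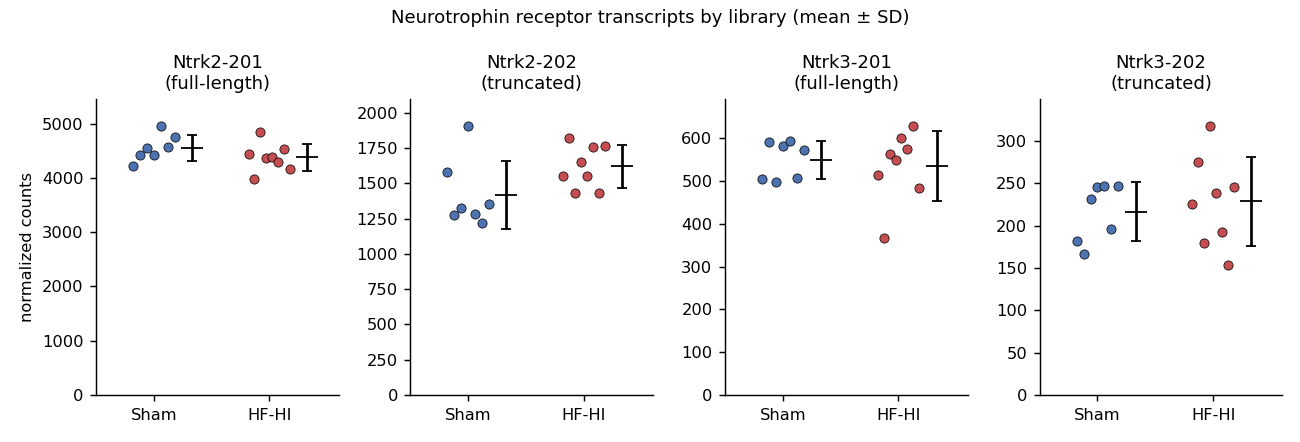
Normalized counts of the 4 receptor transcripts in each of the 7 Sham and 8 HF-HI libraries, 1 point a library, with the mean and SD of each group and an axis of its own for each transcript. The groups overlap for every transcript, and Sham replicate 4 (1903) is the highest point of Ntrk2-202.

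The full-length share sets the Ntrk2 forms against each other in a single value per library. It was computed from normalized counts per kilobase of annotated transcript, as full-length over full-length plus truncated. Only the 2 listed transcripts of a gene enter its share, and its other annotated forms do not. The share in Sham was 64.5% at the lowest, 73.1% at the median and 75.1% at the highest, against 63.1%, 68.1% and 72.6% in HF-HI. Each of the 8 HF-HI shares was under the median of Sham and 5 of the 7 Sham libraries were above the highest HF-HI library, but Sham replicates 4 (64.5%) and 1 (67.7%) lay among the HF-HI values. The means were 71.6% ± 3.94 (SD, n = 7) and 67.9% ± 3.22 (SD, n = 8). The difference of -3.75 percentage points had an exact two-sided permutation p of 0.0650 (6435 arrangements) and of 0.130 when adjusted over the 2 receptor genes.

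Single Sham and HF-HI libraries decided on which side of 0.05 the share of Ntrk2 lay. Without Sham replicate 4 the difference was -4.94 points (exact permutation p = 0.0120), without Sham replicate 1 it was -4.40 (exact permutation p = 0.0450), and without HF-HI replicate 3 it was -4.43 (exact permutation p = 0.0379). In the other 12 such tests the p stayed above 0.05, up to 0.123. Without HF-HI replicate 2 the difference was -3.07 points (exact permutation p = 0.121). Only Sham replicates 1, 2, 4, 5, 6 and 7 and HF-HI replicates 3, 5 and 8 had a size factor above 1. Over these libraries, a small set for such a test, the difference was -2.63 points with an exact permutation p of 0.369. As a share of normalized counts without division by length, the means were 76.3% ± 3.54 (SD, n = 7) and 72.9% ± 2.91 (SD, n = 8), with an exact permutation p of 0.0671. Counting error alone was small, as in Sham replicate 4, where 6515 reads were full-length and 2804 truncated, or 69.9% full-length with a 95% Wilson interval of 69.0% to 70.8%. Shared reads were divided between the forms by estimation, and the error of that division is not in the interval.

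**Figure D3:**
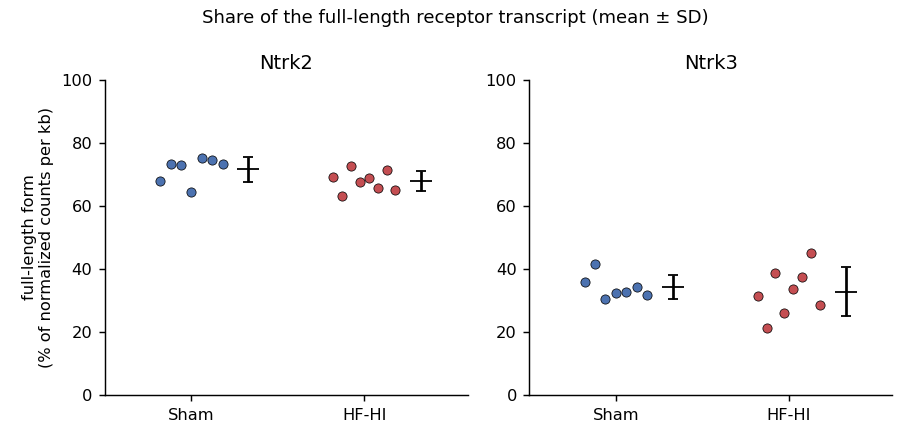
Full-length share among the 2 listed transcripts of each receptor gene in percent of normalized counts per kilobase, 1 point a library, with the mean and SD of the 7 Sham and 8 HF-HI libraries. For Ntrk2 the HF-HI points all lie below the Sham median of 73.1% while 2 Sham points lie among them, and for Ntrk3 the HF-HI points spread on both sides of the Sham values.

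Summed over both forms, Ntrk2 had close means and a narrow interval. The 2 listed transcripts summed to 5972 ± 248 normalized counts in Sham (SD, n = 7) and 5995 ± 137 in HF-HI (SD, n = 8). The log2 difference was 0.01 (SE 0.03), the 95% interval 0.965 to 1.05 times the Sham level, and the limma p 0.822 (adjusted p 0.959 over 7740 genes). Without HF-HI replicate 2 the log2 difference was 0.013 in place of 0.0064. At the gene level 9.94% of the genes passed an unadjusted p of 0.05 and none passed the adjusted threshold, the smallest adjusted p being 0.109.

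Full-length Ntrk3 lay far below full-length Ntrk2 and spread more in HF-HI. In Sham, Ntrk3-201 had 498 normalized counts at the lowest, 573 at the median and 594 at the highest, and in HF-HI it had 366, 556 and 628. The HF-HI values enclosed the Sham values, and the lowest, 366, was again in HF-HI replicate 2. The next lowest HF-HI value was 483, in replicate 8, so the wider spread of HF-HI rested largely on replicate 2. The means were 550.0 ± 44.3 (SD, n = 7) and 535 ± 82.1 (SD, n = 8). The VSD difference was -0.02 (SE 0.03), with a limma p of 0.617, an adjusted p of 0.914 and an interval of 0.835 to 1.11 times the Sham level. Without HF-HI replicate 2 the difference was 0.01 (limma p 0.736).

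Truncated Ntrk3-202 was the least abundant member by normalized counts. Its lowest, median and highest values were 167, 231 and 248 in Sham and 154, 232 and 318 in HF-HI, with HF-HI on both sides of Sham. The means were 217 ± 34.4 (SD, n = 7) and 229 ± 53.1 (SD, n = 8). The VSD difference was 0.02 (SE 0.04), with a limma p of 0.646, an adjusted p of 0.922 and an interval of 0.840 to 1.29 times the Sham level. Without HF-HI replicate 2 the VSD difference was 0.0060 in place of 0.016. Counts were small here, at 90 to 363 reads a library, so that counting error alone came to 6.17% of the mean in Sham and 7.49% in HF-HI, against observed spreads of 15.9% and 23.2%.

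The full-length share of Ntrk3 was 34.1% ± 3.77 in Sham (SD, n = 7) and 32.7% ± 7.70 in HF-HI (SD, n = 8) per kilobase, a difference of -1.40 points (exact permutation p = 0.673, and the same adjusted over the 2 genes). The Sham values ran from 30.3% to 41.6% and the HF-HI values from 21.2% in replicate 2 to 45.1% in replicate 7. Without HF-HI replicate 2 the difference was 0.26 points. Of normalized counts the share was 71.8% ± 3.18 (SD, n = 7) and 69.8% ± 7.47 (SD, n = 8), so whether the full-length or the truncated form is the larger depends on the division by the annotated 19703 bases of Ntrk3-201. The summed Ntrk3 signal was 767 ± 63.8 normalized counts in Sham (SD, n = 7) and 764 ± 69.6 in HF-HI (SD, n = 8). Its 95% interval was 0.909 to 1.09 times the Sham level, with a limma p of 0.910 and an adjusted p of 0.980, and without HF-HI replicate 2 the log2 difference was 0.03 in place of -0.01.

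The order of levels was the same in both groups when counts were divided by annotated length. In Sham, Ntrk2-201 had 521 normalized counts per kilobase (483 to 566), Ntrk2-202 had 207 (178 to 278), Ntrk3-202 had 54.5 (42.0 to 62.2) and Ntrk3-201 had 27.9 (25.3 to 30.2). In HF-HI the same transcripts had 500.3 (455 to 554), 237 (209 to 266), 57.5 (38.7 to 79.8) and 27.1 (18.6 to 31.9). No neighbours in this order overlapped in either group. Without division by length the Ntrk3 forms change places, with Ntrk3-201 above Ntrk3-202 in every library. Among all listed transcripts the mean per kilobase of Ntrk2-201 stood at percentile 92.4, that of Ntrk2-202 at 79.1, that of Ntrk3-202 at 27.0 and that of Ntrk3-201 at 4.86.

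The Ntrk2 forms moved against each other between libraries. After removal of the group means, log2 normalized counts of Ntrk2-201 and Ntrk2-202 had a Pearson r of -0.64 over the 15 libraries (permutation p = 0.0108, adjusted p = 0.0326 over 5 relations) and a Spearman rho of -0.67 (permutation p = 0.00812). Without HF-HI replicates 2 and 3, the farthest on the x axis, r was -0.57. Within Sham r was -0.48 and within HF-HI -0.91. Because reads on the 1737 shared exonic bases were divided between the forms by estimation, a read given to 1 form is taken from the other, and the part of this in the relation was not tested.

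The full-length forms of both receptors varied together. Ntrk2-201 and Ntrk3-201 had an r of 0.62 (permutation p = 0.0130, adjusted p = 0.0326) and a rho of 0.51 (permutation p = 0.0546), and r was 0.46 without HF-HI replicates 2 and 3. The other 3 relations did not pass an adjusted p of 0.05. They were Ntrk3-201 with Ntrk3-202 (r -0.36, rho -0.39, adjusted permutation p 0.187), Ntrk2-202 with Ntrk3-202 (r 0.39, rho 0.51, adjusted permutation p 0.186) and the shares of the 2 genes (r 0.46, rho 0.45, adjusted permutation p 0.137). Without the 2 farthest libraries their r was -0.19, 0.26 and 0.32.

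**Figure D4:**
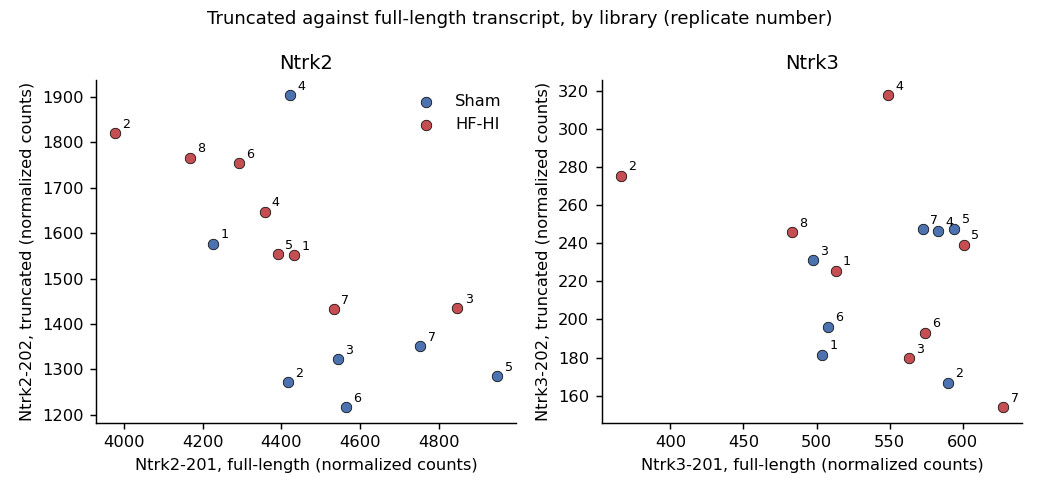
Truncated against full-length normalized counts of Ntrk2 and of Ntrk3, 1 point a library, Sham and HF-HI in separate colours. Libraries with more Ntrk2-201 have less Ntrk2-202 (r -0.64 after removal of the group means), and HF-HI replicate 2 has the least of both full-length forms.

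The transcripts of other genes most like each member were ranked by Pearson r of VSD over the 15 libraries after removal of the group means, as a description of libraries that share depth and tissue composition. Taking the highest r among all transcripts over so few libraries gives high values by selection alone, and no link to a member was tested. Ntrk2-201 was most like Ccdc85a-206 (r 0.84), Maml3-202 (0.82) and Slc38a2-201 (0.82), the last an amino acid transporter. Ntrk2-202 was most like Cbl-201 (0.83), Slc7a14-201 (0.82) and Gid4-201 (0.79). Cbl encodes a ubiquitin ligase that marks activated receptor tyrosine kinases. Its r with Ntrk2-202 was 0.85 without HF-HI replicate 2, a value from the same selected pair. Ntrk3-201 was most like Gabbr2-201 (0.91), a GABA-B receptor subunit, Rtn4r-201 (0.88), the Nogo receptor, and Plxdc1-201 (0.87). Those values rested in part on HF-HI replicate 2, without which r was 0.79, 0.73 and 0.81. Ntrk3-202 was most like Arpp19-202 (0.89), annotated as a target of nonsense-mediated decay, and Pitpnc1-202 (0.86).

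Astrocyte markers are given beside these values because truncated TrkB is known from astrocytes, and their group sums lay close together. All 20 genes of the astrocyte list were listed, with 31 transcripts, of which the unadjusted level (p under 0.05) was passed by 1 with the higher mean in HF-HI and by 3 with the lower, and the adjusted threshold by none. These calls were 12.9% of the list, beside 8.83% of all transcripts. Their summed level was 67266 to 69634 normalized counts in the Sham libraries and 66392 to 72197 in the HF-HI libraries, with means of 68480 and 68608. A large part of these sums was Slc1a2-202, with means of 29882 in Sham and 31224 in HF-HI (limma p 0.102). The median log2 ratio of the 31 transcripts was -0.05, beside -0.00 over all transcripts. The part of the astrocyte markers in the values of Ntrk2-202 was not tested. Among the unadjusted calls, the lower ones were Ndrg2-202, Aldoc-201 and Mlc1-201, and the higher one was Ndrg2-201. Gfap-201, the intermediate filament of reactive astrocytes, had 472 ± 42.7 normalized counts in Sham (SD, n = 7) and 501 ± 76.6 in HF-HI (SD, n = 8). All 14 neuron marker genes were listed, among them Slc17a7, the vesicular glutamate transporter of cortical pyramidal neurons, and their sum was 68353 to 69956 in the Sham libraries and 67963 to 74240 in the HF-HI libraries. The means were 69247 and 71435, and 6 of the 8 HF-HI sums exceeded every Sham sum. The part of the neuron markers in the receptor values was not tested either. In such bulk tissue, fewer cells of a type and less RNA per cell cannot be told apart.

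Of the ligands and the proteins that process and release them, Bdnf, Ntf3 and Ntf5 were not analysed here. Of the 13 genes on this list 6 were listed, with 10 transcripts, and 1 of the 10 was past an unadjusted p of 0.05, beside 8.83% of all transcripts. Cadps2-209, from a gene for a secretion factor of dense-core vesicles that promotes BDNF release, had 604 ± 83.9 normalized counts in Sham (SD, n = 7) and 706 ± 104 in HF-HI (SD, n = 8), with a limma p of 0.0499 and an adjusted p of 0.565. Another Cadps2 transcript lay the other way, Cadps2-213 with 151 and 106 (limma p 0.0586). The convertase transcript Pcsk2-201 had 3626 ± 161 and 3768 ± 153 (limma p 0.113), and Cpe-201, for the sorting and trimming enzyme carboxypeptidase E, had 10725 ± 400 and 10605 ± 558 (limma p 0.642). Plat-201, for tissue plasminogen activator, had 161 ± 18.5 and 172 ± 15.6 (limma p 0.249). Pcsk1-201 had 329 and 316, and Pcsk7-201 had 162 and 175. No ligand-side transcript passed the adjusted threshold.

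On the receptor side, 8 of 10 genes were listed with 13 transcripts, and Ntrk2-202 was the only one past an unadjusted p of 0.05, or 7.69% beside 8.83% of all transcripts. Ngfr, for the p75 receptor, was not analysed here. Sortilin and its relatives bind pro-neurotrophins and sort Trk receptors. Sort1-201 had 5441 ± 153 normalized counts in Sham (SD, n = 7) and 5597 ± 202 in HF-HI (SD, n = 8), with a limma p of 0.156, and the rarer Sort1-203 had 112 ± 24.6 and 150.2 ± 53.6 (limma p 0.108). Sorl1-201 had 5472 ± 485 and 5639 ± 375 (limma p 0.423). Sorcs1-203, Sorcs2-201 and Sorcs3-201 had group means of 440.5 and 451, 364 and 368, and 540.2 and 528, with limma p-values from 0.545 to 0.812. Lingo1, a partner of the p75 receptor complex, had 3 transcripts with group means of 844 and 813, 181 and 217, and 196 and 141, and limma p-values of 0.550, 0.497 and 0.116. The adjusted p-values of these sortilin family and Lingo1 transcripts were 0.650 or more.

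**Figure D5:**
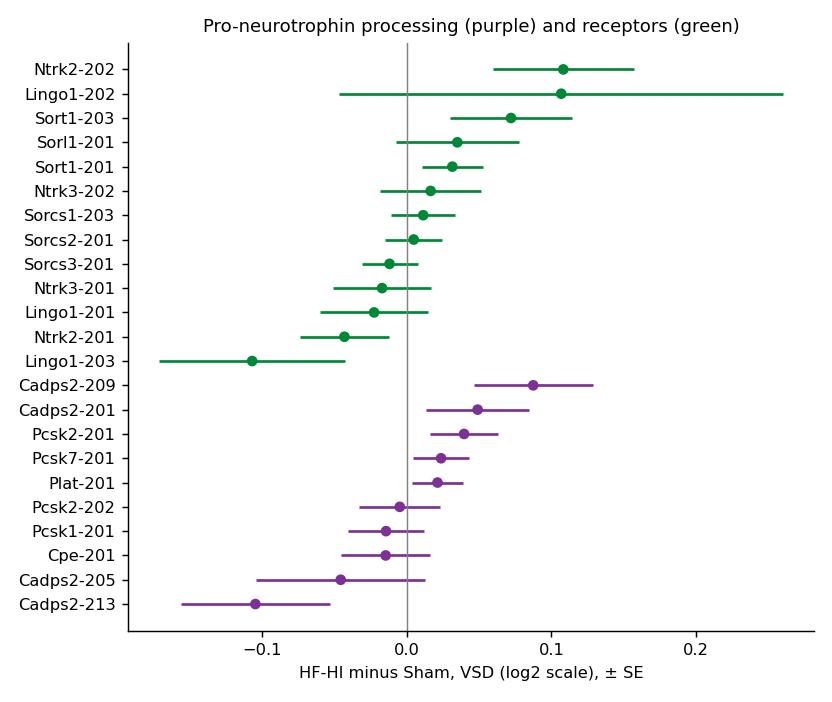
VSD difference on the log2 scale, HF-HI minus Sham, with its SE as a line, for the 10 listed transcripts of ligand processing genes (purple) and the 13 of receptor and co-receptor genes (green), ordered by the difference within each list. Both lists lie on both sides of 0. Ntrk2-202 (0.108) and Lingo1-202 (0.107) are the highest of the receptor transcripts on this scale, which compresses differences, most of all at low counts. By the log2 ratio of the group means, Sort1-203 (0.42) and Lingo1-202 (0.26) exceed Ntrk2-202 (0.19).

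Adaptors and trafficking proteins carry the signal from the activated receptor or remove it from the membrane. Of 38 genes 29 were listed, with 41 transcripts, of which 3 had the higher and 1 the lower mean in HF-HI among those at the unadjusted level, in all 9.76% and near the 8.83% of all transcripts. Sos1-201, for the exchange factor that loads Ras, had 677 ± 38.1 normalized counts in Sham (SD, n = 7) and 744 ± 41.6 in HF-HI (SD, n = 8), with a limma p of 0.00765 and an adjusted p of 0.404. Cbl-201 had 404 ± 38.5 and 449.9 ± 15.1 (limma p 0.00917, adjusted p 0.408), and Irs1-201, for an insulin receptor substrate that couples to PI3 kinase, had 364 ± 31.8 and 405 ± 23.3 (limma p 0.0139, adjusted p 0.448). The lower one was Ptprf-201, for the receptor phosphatase LAR, with 405 ± 38.5 and 362 ± 40.9 (limma p 0.0483, adjusted p 0.561). The median log2 ratio of the 41 transcripts was -0.03, beside -0.00 over all transcripts.

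Kinases and other enzymes downstream of Trk were represented by 25 of 28 genes and 37 transcripts, with 3 higher and 1 lower in HF-HI at the unadjusted level (10.8% in all, beside 8.83% of all transcripts) and a median log2 ratio of -0.01. Nras-201, for a Ras protein, was the lower one with 438 ± 22.9 normalized counts in Sham (SD, n = 7) and 403 ± 22.8 in HF-HI (SD, n = 8) (limma p 0.0197, adjusted p 0.479).

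Regulators of Bdnf transcription could be measured although Bdnf itself was not analysed here. Of 24 genes 17 were listed, with 27 transcripts, of which 2 were higher and 3 lower in HF-HI at the unadjusted level. That is 18.5% of the list, beside 8.83% of all transcripts. Bhlhe40-201, for a basic helix-loop-helix repressor induced by activity, had 668 ± 97.0 normalized counts in Sham (SD, n = 7) and 885 ± 102 in HF-HI (SD, n = 8), a log2 ratio of 0.40, with a limma p of 4.5e-04 and an adjusted p of 0.227. Creb1, for the activity-dependent activator CREB, had forms in opposite directions, with 448 ± 87.4 and 287 ± 129 for Creb1-202 (limma p 0.0268) and 261 ± 93.0 and 395 ± 156 for Creb1-201 (limma p 0.0479). Hdac2-201, for a histone deacetylase, had 504 ± 32.0 and 459 ± 41.5 (limma p 0.0385, adjusted p 0.539). The fifth transcript past the unadjusted level was lower in HF-HI.

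Without the 4 members, the 5 pathway lists held 124 transcripts of 83 genes. At the unadjusted level 9 were higher and 5 lower in HF-HI, or 11.3% beside 8.83% of all transcripts, and 0 passed the adjusted threshold in limma. The smallest adjusted p was 0.227, and the median log2 ratio was 0.00 beside -0.00 over all transcripts.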

How the data were processed

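Per the study's methods, the authors aligned stranded total RNA reads to mm10 with STAR, estimated transcript counts with eXpress, and normalized with DESeq2. The annotation release and the versions of STAR and eXpress are not given in the sources used here. The authors deposited variance-stabilized values on the log2 scale (VSD) for 10370 transcripts. Inverting that transformation, with the VSD of 9.81 as a count of 0, gave normalized counts, and 100.0% of the values became whole reads within 0.1 reads. The lowest mean was 107.9 normalized counts. Of the transcripts, 10241 matched GENCODE M21 and 129 did not.

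Transcripts were tested with limma 3.58.1 in R 4.3.3 on VSD (group only, eBayes with trend, two-sided, Benjamini-Hochberg adjustment over all transcripts, threshold 0.1), and genes on log2(summed normalized counts + 1). Fold intervals come from limma on log2(normalized counts + 1), which understates changes of low transcripts. VSD compresses differences, most of all at low counts. For Ntrk2-202 the VSD difference was 0.108, and the difference in log2(normalized counts + 1) was 0.203. Shares were tested by exact permutation and correlations by 100000 permutations (scipy 1.17.1). The code was tested on simulated data.

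Wilson intervals are at 95% and cover counting error only. The members, the gene lists and the rules were chosen with earlier results of these data known. Named were all members, up to 4 transcripts of each pathway list at an unadjusted p under 0.05, the receptors and ligands, and the 3 transcripts most like each member. Some items that these rules name are not reported here. Cell type lists (astrocyte, neuron, oligodendrocyte, microglia, endothelial, choroid plexus, striatal) and activity-induced genes were used as background. Alternatives changed the prior, scaling, filter, weights, covariates, block, measure of the share and each library in turn. Voom on the recovered reads and the fit without 3 libraries were chosen after seeing the data.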

Additional observations from a re-analysis of the deposited data

How the results depend on the processing

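Of the 4 receptor transcripts, Ntrk2-201 and Ntrk2-202 kept their direction in all 25 alternatives. The limma p of Ntrk2-202 was under 0.05 in 11 of the 25, and its adjusted p ran from 0.278 to 0.959. The count of receptor transcripts at an unadjusted p under 0.05 was 1 and fell to 0 with a replicate block (p 0.0843 for Ntrk2-202), with the log2 size factor as a covariate (0.0637), with library weights (0.0806), with voom on the recovered reads (0.0556) and without HF-HI replicates 2, 4 and 7 (0.0921), the last 2 chosen after seeing the data. It ranged from 0 to 1 when each library was left out in turn. The cause was not tested. Leaving out a library gave -0.030 to 0.0082 for the VSD difference of Ntrk3-201 (0.0082 without HF-HI replicate 2), -0.0020 to 0.034 for Ntrk3-202 (-0.0020 without HF-HI replicate 4), -4.94 to -3.07 points for the share of Ntrk2, -3.17 to 0.26 points for the share of Ntrk3, -0.0051 to 0.020 for the summed log2 level of Ntrk2 and -0.034 to 0.028 for that of Ntrk3. Pathway transcripts at the unadjusted level numbered 14, and 8 to 17 when a library was left out (8 without Sham replicate 2, 9 without HF-HI replicate 4 and 9 without HF-HI replicate 6).

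No pairing of the samples by replicate number was seen, which does not exclude one. Same-numbered libraries correlated at -0.14 to 0.09 in their deviations from the group means, and 1 of 7 pairs correlated best with its own number. With the replicate block, which sets aside HF-HI replicate 8 for want of a Sham partner, the summed Ntrk3 difference on the log2 scale was 0.0017, and the share of Ntrk2 differed by -3.33 points with a permutation p of 0.172. The share without HF-HI replicates 2, 4 and 7 differed by -3.39 points (exact permutation p 0.146). Depth limited Ntrk3-202 most, at 90 reads in its lowest library.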

Other observations

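Activity-induced genes, which neurons switch on within a short time after firing, were described from a list of 10 genes with 14 transcripts. Of these, 8 had the higher and 0 the lower mean in HF-HI among those past the unadjusted level of 0.05, beside 4.94% higher among all transcripts, and the median log2 ratio was 0.40. None passed the adjusted threshold in limma. Arc-202, for a postsynaptic protein whose mRNA is induced by BDNF, had 603 ± 200 normalized counts in Sham (SD, n = 7) and 1132 ± 225 in HF-HI (SD, n = 8), with an adjusted limma p of 0.214. These transcripts were named after their values were seen.

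At the same unadjusted level, passed by 8.83% of all transcripts, neuron markers (30 transcripts) had 3 higher and 1 lower, or 13.3%. Oligodendrocyte markers (11 of 12 genes) and endothelial markers (9 of 10 genes) had 0, microglia markers (8 of 12 genes) had 1 lower (12.5% of their transcripts), and striatal markers (9 of 10 genes, 17 transcripts) had 3 lower (17.6%). Summed striatal markers were 7495 to 11360 normalized counts in the Sham libraries and 5419 to 10861 in the HF-HI libraries. Choroid plexus and ependymal markers (2 of 8 genes, 5 transcripts) had 0, and their sums were 1972 to 11212 and 2018 to 13832.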
